A study of Bos taurus with 24 samples.

Results

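The connexin genes GJA1, GJA4, GJA5 and GJC1, which encode subunits of gap junction channels, were followed across 5 groups of bovine granulosa cells. GJA4 was taken by its identifier, ENSBTAG00000013881, and the other genes were matched by symbol to the Ensembl cow identifiers. They are 4 of the 27607 genes in the deposited count table. GJA1 was by far the most abundant of them, and its mean share of the summed connexin level was higher in late antral than in earlier groups. GJA4 and GJA5 were nearly absent from cumulus cells of late antral follicles. Both were also low in mural cells of that stage, except for GJA4 in a library low in granulosa markers. GJC1 had its lowest mean in late antral cumulus cells, but in mural cells of late antral follicles it stood near its earlier level.

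Connexins assemble as hexamers in the cell membrane, and a hexamer docks with that of a neighbouring cell to form a channel for ions and small metabolites. Granulosa cells are joined to each other by such junctions, and cumulus cells also reach the oocyte with transzonal projections, thin processes that cross the zona pellucida and carry gap junctions at their tips. In mice, GJA1 protein couples granulosa cells, whereas GJA4 protein is needed between the oocyte and its cumulus cells. GJA5 and GJC1 are best known from the heart and vessel walls.

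The study asks how the ability of granulosa cells to grow transzonal projections changes during follicle development. RNA of Bos taurus cells was sequenced in 24 libraries. Cumulus cells, which surround the oocyte, came from late antral follicles (late_CC, 5 libraries) and early antral follicles (early_CC, 5 libraries). Mural granulosa cells, which line the follicle wall, came from late antral follicles (late_MGC, 5 libraries) and early antral follicles (early_MGC, 5 libraries). Granulosa cells of secondary follicles, which have no antrum and so no separate cumulus, made up the group secondary_GC (4 libraries). The labels name no treatment, breed, age or follicle size, and do not say whether libraries of a group came from separate animals, so p-values measure only the spread between these libraries. In bulk RNA, fewer cells of a type and less RNA per cell cannot be told apart.

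The libraries held between 8379801 and 31762400 counts (median 18070281.5). The FSH receptor FSHR, a granulosa marker, stood between 201 and 424 CPM (counts scaled to a library total of 1000000) in 23 of the 24 libraries. The exception was library late_MGC 3, the deposited column Cmur_lat__C5, with 10.6 CPM of FSHR against 335 ± 36.4 CPM (SD, n = 4) in the other late_MGC libraries. In that library the 7 stroma markers summed to 2695 CPM, against 76.7 to 89.2 CPM in the other late_MGC libraries, with LUM at 1621, POSTN at 588 and DCN at 276 CPM. The 10 granulosa markers summed to 848 CPM in it, against 9388 to 12989 CPM in the others. Of that sum GATM held 618 CPM, more than in any other library (20.1 to 477 CPM). Each of the other granulosa markers was lower in late_MGC 3 than in every other late_MGC library. FST, for example, was 83.0 CPM there, against 5008 to 6564 CPM. The mean correlation of the log2 CPM of late_MGC 3 with its own group was 0.870, the lowest value. Next came late_CC 3 (0.915) and early_MGC 4 (0.9205), and these 3 are the libraries said below to stand apart. They were taken as the 3 lowest, without a further criterion, and secondary_GC 2 (0.9225) lay close to early_MGC 4. Because of the markers of late_MGC 3, tests of connexins that involve late antral mural cells are given with and without that library. For other genes the values without it are given in part.

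Differences were tested with edgeR's quasi-likelihood test over 14298 genes, and a gene is called higher or lower where its Benjamini-Hochberg adjusted p, adjusted over all these genes, was under 0.05. Log2 fold changes are given with their standard error, the group named first over the group named second. All 4 connexins passed the filter on low counts. The tests also used a scaling factor per library (TMM), from 0.809 in late_MGC 1 to 1.15 in late_CC 4. CPM levels, ranges and orders use library totals alone, so close ones can differ on the scale of the tests.

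GJA1 encodes Cx43 and lies on chromosome 9 (ENSBTAG00000001835, ARS-UCD1.2, 29748660 to 29761667, minus strand). In secondary_GC its level was 403, 343, 592 and 367 CPM in libraries 1 to 4. In early_CC it was 466, 439.8, 606, 416 and 363 CPM, and in early_MGC 485, 672, 384, 853 and 443 CPM. These 3 groups overlapped, and early_MGC 4 was the highest library among them. In late_CC it was 609.6, 662, 778, 666 and 599.6 CPM, and in late_MGC 799, 1207, 392, 1228 and 1120.1 CPM. In CPM all late_CC libraries were above all secondary_GC libraries, but not above secondary_GC 3 in each case once the scaling factors were applied. The low late_MGC value was that of late_MGC 3, and the other late_MGC libraries were above every late_CC library.

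GJA1 was thus ordered late_MGC (949 ± 356 CPM, n = 5, or 1088 ± 199 CPM without late_MGC 3, n = 4), late_CC (663 ± 70.9 CPM, n = 5), early_MGC (568 ± 192 CPM, n = 5), early_CC (458 ± 90.7 CPM, n = 5) and secondary_GC (426 ± 113 CPM, n = 4), each as mean ± SD. Among mural cells, GJA1 was higher in late_MGC than in early_MGC by 0.82 ± 0.28 (edgeR adjusted p = 0.0449), and by 1.03 ± 0.24 (0.00299) without late_MGC 3. The first of these values lay close to the threshold and was not called with RLE scaling (0.76, 0.063) or limma-voom (0.78, 0.0642): leaving out any 1 of 8 of the 10 mural libraries took the adjusted p past it, up to 0.121, while it held without late_MGC 3 or without early_MGC 4. Against secondary_GC, GJA1 was higher in late_MGC by 1.40 ± 0.31 (edgeR adjusted p = 0.00127), and by 1.61 ± 0.26 (3.68e-05) without late_MGC 3.

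In cumulus cells the difference in GJA1 was smaller. It was 0.54 ± 0.28 for late_CC against early_CC (edgeR adjusted p = 0.122), and the ranges of both groups overlapped only through early_CC 3 at 606 CPM. Against secondary_GC it was 0.67 ± 0.30 (0.0716), and 0.68 ± 0.25 (0.0248) in the fit without late_MGC 3. It was also called without secondary_GC 3 (0.91, 0.0286). The change of GJA1 with stage in cumulus cells and that in mural cells did not pass the test of their difference, the interaction of stage and cell type (-0.28 ± 0.40, edgeR adjusted p = 0.64, and -0.48 ± 0.34, 0.269, without late_MGC 3). Of the fits run, it was called only in the one that left out late_CC 3, early_MGC 4 and late_MGC 3 together (-0.87 ± 0.29, 0.0227).

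Within late antral follicles, GJA1 was lower in late_CC than in late_MGC, at -0.73 ± 0.28 (edgeR adjusted p = 0.0437) with all libraries and at -0.94 ± 0.24 (0.00302) without late_MGC 3. As for the mural comparison, the call with all libraries was lost when any 1 of 8 of the 10 libraries was left out (adjusted p up to 0.106) and was held without late_MGC 3 or without late_CC 3, and limma-voom did not make it (-0.61, 0.0974). The comparisons of the earlier groups gave no call for GJA1, with 0.59 ± 0.30 for early_MGC against secondary_GC, 0.13 ± 0.30 for early_CC against secondary_GC and -0.45 ± 0.28 for early_CC against early_MGC.

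**Figure D1:**
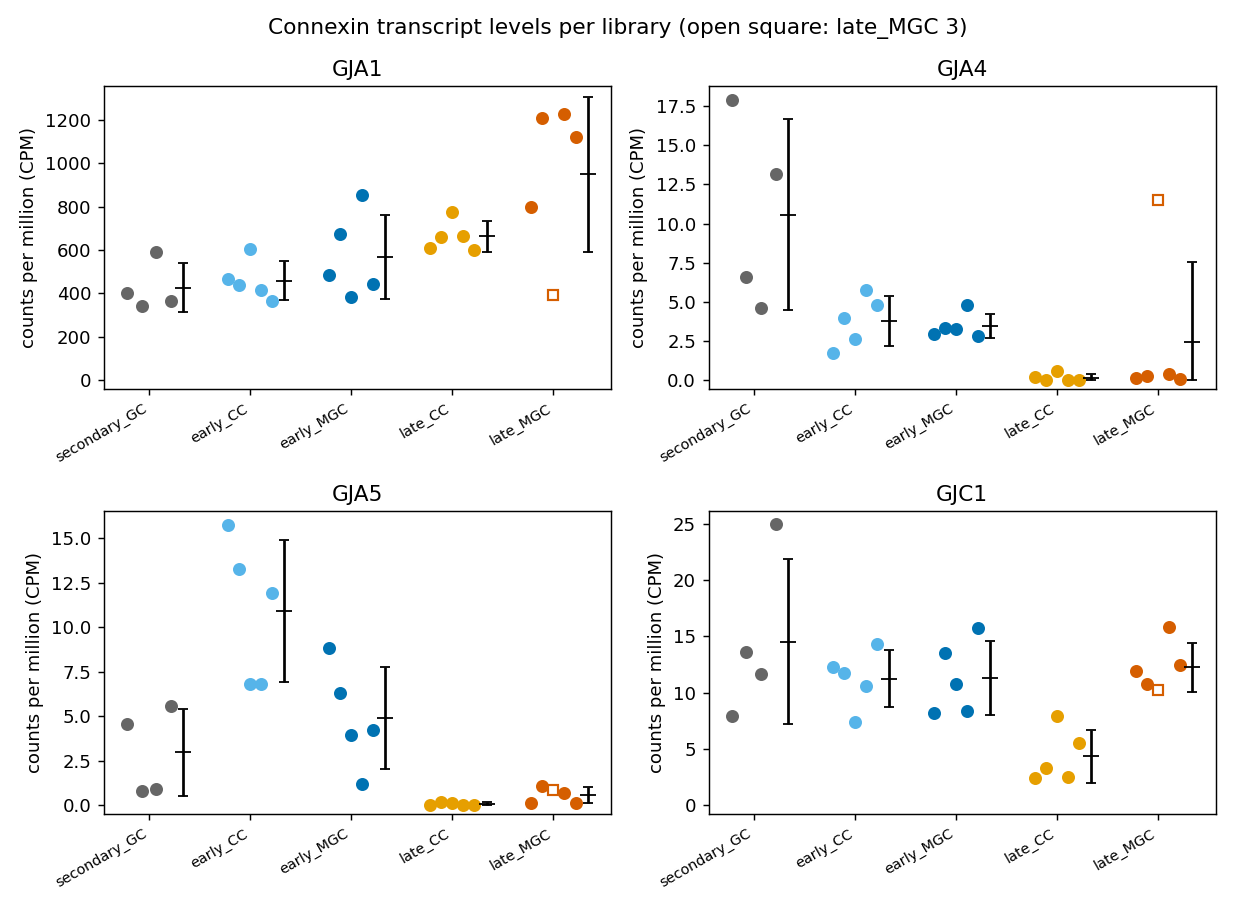
Level of each connexin gene in CPM (vertical axis) in every library, by group, with points in library order and a bar for the mean ± SD of the group drawn down to 0 at most. Library late_MGC 3, the open square, is low for GJA1 (392 CPM) and high for GJA4 (11.5 CPM), while its GJA5 and GJC1 values lie in or next to the range of its group.

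GJA4 encodes Cx37 and lies on chromosome 3 (ARS-UCD1.2, 110888198 to 110890904, minus strand). In secondary_GC its level was 17.9, 6.60, 4.60 and 13.2 CPM in libraries 1 to 4. In early_CC it was 1.73, 3.98, 2.65, 5.77 and 4.78 CPM, and in early_MGC 2.96, 3.36, 3.30, 4.77 and 2.84 CPM. The lowest secondary_GC library lay within the range of the early antral groups, and the other 3 lay above it. In late_CC GJA4 was 0.229, 0, 0.554, 0 and 0 CPM, which is 12 reads over 5 libraries, 8 of them in late_CC 3. In late_MGC it was 0.104, 0.242, 11.5, 0.361 and 0.0949 CPM. Every late_CC library was below every earlier library, and so were 4 of the 5 late_MGC libraries, while late_MGC 3 held 215 of the 230 GJA4 reads of its group.

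GJA4 therefore fell to 0.157 ± 0.243 CPM in late_CC, against 3.78 ± 1.62 CPM in early_CC (SD, n = 5 each), a 24.2-fold lower mean (log2 fold change -4.55 ± 1.18, edgeR adjusted p = 0.00336). In mural cells the result turned on 1 library. With all libraries GJA4 averaged 2.46 ± 5.06 CPM in late_MGC and 3.45 ± 0.773 CPM in early_MGC (SD, n = 5 each), with a log2 fold change of -0.54 ± 0.94 (edgeR adjusted p = 0.734), whereas limma-voom called it on the same libraries (-2.76 ± 0.85, 0.0251). Without late_MGC 3 the late_MGC mean was 0.2004 ± 0.126 CPM (SD, n = 4), 17.2-fold lower than in early_MGC (-4.03 ± 0.71, 0.000157).

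The same library decided whether GJA4 differed between the late antral cell types. With it, GJA4 was called lower in late_CC than in late_MGC (-4.01 ± 1.18, edgeR adjusted p = 0.00948), and the interaction of stage and cell type was called (-4.01 ± 1.49, 0.0445), though limma-voom called neither (-2.69, 0.131, and -2.67, 0.18). Without it, the first value was -0.53 ± 0.83 (0.636) and the interaction -0.53 ± 0.97 (0.702). The interaction was also lost when any 1 of 11 other libraries was left out (adjusted p up to 0.0782): early_CC 2, 4 or 5, early_MGC 1, 2, 3 or 5, or late_CC 1, 2, 4 or 5.

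Against secondary_GC, where GJA4 averaged 10.6 ± 6.09 CPM (SD, n = 4), the gene was lower in late_CC by a log2 value of -5.98 ± 1.24 (edgeR adjusted p = 0.000547). For late_MGC against secondary_GC it was -1.97 ± 0.98 (0.133) with all libraries, and -5.46 ± 0.74 (3.24e-06) without late_MGC 3. In early antral cells the differences from secondary_GC had the same size in both cell types, -1.43 ± 0.97 in early_CC (0.504) and -1.43 ± 0.98 in early_MGC (0.39), and were not called. Without the 3 libraries that stand apart, both were called (-1.44 ± 0.45, 0.0424, and -1.65 ± 0.49, 0.0246), as they were in fits of only the groups compared (-1.48, 0.0417, and -1.43, 0.0361). The early cell types did not differ by the test for GJA4 (early_CC against early_MGC, -0.0066 ± 0.93, 0.997).

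GJA5 encodes Cx40 and lies on the same chromosome at a distance (ENSBTAG00000006720, chromosome 3, ARS-UCD1.2, 21877817 to 21894417, plus strand). In secondary_GC its level was 4.54, 0.800, 0.921 and 5.57 CPM in libraries 1 to 4, 2 of them high and 2 low. In early_CC it was 15.7, 13.3, 6.80, 6.81 and 11.9 CPM, all above secondary_GC, and in early_MGC 8.83, 6.29, 3.95, 1.19 and 4.19 CPM, which overlapped with both. In late_CC it was 0, 0.197, 0.138, 0 and 0 CPM, and in late_MGC 0.139, 1.09, 0.857, 0.661 and 0.0949 CPM. Of the late antral libraries, no late_CC one reached the lowest earlier library, whereas late_MGC 2 and late_MGC 3 overlapped with the low secondary_GC libraries. Library late_MGC 3 was within its group for GJA5.

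In cumulus cells GJA5 fell to 0.0670 ± 0.0940 CPM in late_CC, against 10.9 ± 3.98 CPM in early_CC (SD, n = 5 each). The log2 fold change was -7.13 ± 0.85 (edgeR adjusted p = 8.5e-07), and the ratio of means was 163-fold, which rests on 6 reads in late_CC. In mural cells GJA5 fell to 0.568 ± 0.439 CPM in late_MGC, against 4.89 ± 2.85 CPM in early_MGC (SD, n = 5 each). The log2 fold change was -3.06 ± 0.66 (0.00205), and -3.25 ± 0.70 (0.0014) without late_MGC 3. The interaction, -4.07 ± 1.05 (0.00455), passed the test, and did so without late_MGC 3 as well (-3.87 ± 1.07, 0.00633). GJA5 was therefore one of the connexins whose change with stage was more negative in cumulus than in mural cells.

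GJA5 was also lower in late_CC than in late_MGC (-3.01 ± 0.86, edgeR adjusted p = 0.0071, and -2.82 ± 0.92, 0.0159, without late_MGC 3), though the ranges overlapped and limma-voom did not call it (-2.79, 0.0916). Against secondary_GC it was lower in late_CC (-5.21 ± 0.84, 3.14e-05) and in late_MGC (-2.21 ± 0.67, 0.0141, or -2.40 ± 0.71, 0.00994, without late_MGC 3). With late_MGC 3 kept, the call in late_MGC was lost without secondary_GC 4, the library with the most GJA5 of its group (-1.70, 0.076). It was also lost in the fit of only these groups (-2.25, 0.0617).

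Among the earlier groups GJA5 averaged 10.9 ± 3.98 CPM in early_CC (SD, n = 5), against 2.96 ± 2.46 CPM in secondary_GC (SD, n = 4), a difference of 1.91 ± 0.66 (edgeR adjusted p = 0.125) whose ranges did not overlap. It was not called there or without late_MGC 3 (0.069), but was called when the fit held only these groups (1.84, 0.0399). Early_CC against early_MGC gave 1.06 ± 0.59 (0.252), and early_MGC against secondary_GC 0.85 ± 0.64 (0.436). GJA5 was thus the only one of the 4 genes whose mean was highest in early_CC. Its order was early_CC, early_MGC, secondary_GC, late_MGC and late_CC, in which the neighbours late_MGC and secondary_GC differed by the test and so did late_CC and late_MGC.

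GJC1 encodes Cx45 and lies on chromosome 19 (ENSBTAG00000004036, ARS-UCD1.2, 44526681 to 44554914, minus strand). In secondary_GC its level was 7.90, 13.6, 11.6 and 24.96 CPM in libraries 1 to 4, with library 4 well above the others. In early_CC it was 12.2, 11.8, 7.36, 10.6 and 14.3 CPM, and in early_MGC 8.21, 13.5, 10.8, 8.35 and 15.8 CPM. In late_CC it was 2.40, 3.34, 7.89, 2.48 and 5.49 CPM, and in late_MGC 11.9, 10.8, 10.2, 15.9 and 12.4 CPM. In CPM all late_CC libraries lay below all late_MGC and all secondary_GC libraries. However, late_CC 3, the highest of them, lay just under secondary_GC 1 and reached into the range of early_CC. With the scaling factors applied, late_CC 3 was above secondary_GC 1.

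GJC1 fell in cumulus cells, to 4.32 ± 2.35 CPM in late_CC, against 11.2 ± 2.56 CPM in early_CC (SD, n = 5 each; -1.35 ± 0.33, edgeR adjusted p = 0.00157). In mural cells it averaged 12.2 ± 2.21 CPM in late_MGC and 11.3 ± 3.28 CPM in early_MGC (SD, n = 5 each). The log2 difference was 0.24 ± 0.32 (0.646), and 0.33 ± 0.33 (0.509) without late_MGC 3. The interaction was -1.59 ± 0.45 (0.00939), and -1.68 ± 0.46 (0.00533) without late_MGC 3. Within late antral follicles GJC1 was lower in late_CC than in late_MGC (-1.69 ± 0.33, 0.000229, or -1.78 ± 0.34, 0.000124, without late_MGC 3). It was also lower in late_CC than in secondary_GC (-1.69 ± 0.34, 0.000329).

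GJC1 passed no test in the comparisons without late_CC. The value was 0.0017 ± 0.34 for late_MGC against secondary_GC, -0.24 ± 0.34 for early_MGC against secondary_GC, -0.34 ± 0.33 for early_CC against secondary_GC and -0.10 ± 0.32 for early_CC against early_MGC. The order of the means in CPM was secondary_GC (14.5 ± 7.35 CPM, n = 4), late_MGC, early_MGC, early_CC and late_CC. Of the neighbours only late_CC and early_CC differed by the test. On the scale of the test, with its scaling factors, secondary_GC and late_MGC were nearly equal. The sign of the value for late_MGC against secondary_GC changed with RLE scaling.

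Counted by comparison, the connexins divided as follows, beside the share of all tested genes that was called. In late_CC against early_CC, 3 of 4 were lower and none higher, where 22.7% of all genes were called lower and 45.2% in either direction (49.9% without late_MGC 3, with the same count of connexins). In late_CC against late_MGC all 4 were lower, where 20.8% of all genes were called lower and 39.7% in either direction, or 3 of 4 without late_MGC 3 (41.8% called). In late_MGC against early_MGC 1 was higher, GJA1, and 1 lower, GJA5, where 9.76% of all genes were called higher and 9.30% lower (19.1% together). Without late_MGC 3, GJA4 joined GJA5 there (24.1% called). With close to 1 in 2 genes called between the cumulus stages, a call there says little by itself, and the sizes of the falls are given above.

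Against secondary_GC, 3 of 4 connexins were lower in late_CC, where 23.1% of all genes were called lower and 46.0% in either direction, and without late_MGC 3 GJA1 was called higher as well (50.3% called). In late_MGC 1 was higher and 1 lower, where 16.6% of all genes were called higher and 15.3% lower (31.8% together), or 1 higher and 2 lower without late_MGC 3 (35.7% called). In the fit of all libraries, edgeR called no connexin in early_MGC against secondary_GC (9.10% called), in early_CC against secondary_GC (1.99% called) or in early_CC against early_MGC (13.1% called). Nor did it in the same comparisons without late_MGC 3 (13.4%, 5.25% and 18.1% called). Some of the alternative fits described at the end did call connexins in these comparisons. At an unadjusted p under 0.05, edgeR placed 3530, 2361 and 3978 of all genes in these comparisons with all libraries, GJA5 in early_CC against secondary_GC among them. The interaction was called below 0 for GJA4, GJA5 and GJC1, where 16.9% of all genes were called below 0 and 31.4% in either direction, and without late_MGC 3 for GJA5 and GJC1 (36.4% called).

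**Figure D2:**
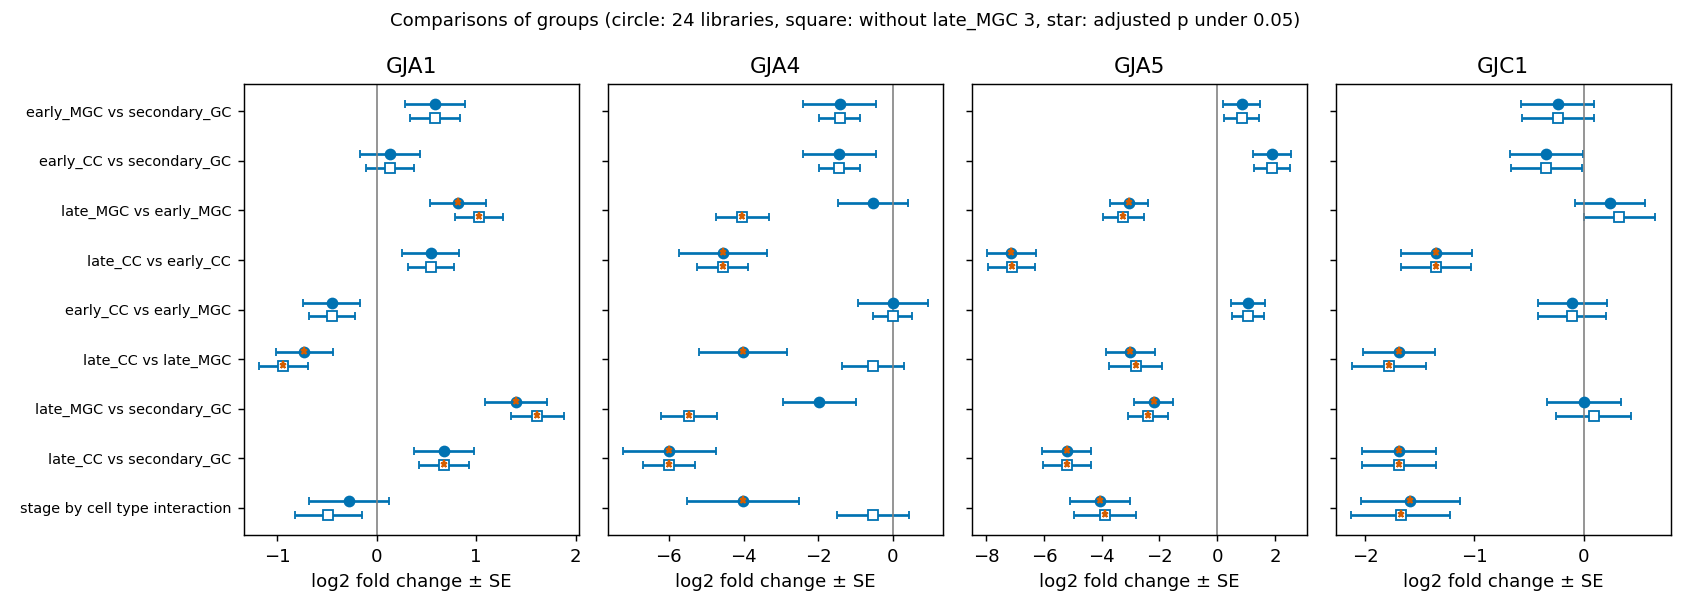
Log2 fold change (horizontal axis, ± SE) of each connexin in every comparison, with all 24 libraries (circles) and without late_MGC 3 (open squares), the first-named group over the second; stars mark an edgeR adjusted p under 0.05. Leaving out the library moves GJA4 in late_MGC against early_MGC to -4.03 and in late_CC against late_MGC to -0.53, whereas the values of GJA5 and GJC1 shift little.

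To compare levels between genes, counts were also divided by exon length, as CPM per kilobase of summed exons. On this scale GJA1 made up most of the connexin level in each group. Its mean share of the summed level of all connexins with a symbol was 89.2% in secondary_GC, 91.3% in early_CC, 94.2% in early_MGC, 98.9% in late_CC and 96.3% in late_MGC, or 98.0% in late_MGC without late_MGC 3. In late_CC the share was between 98.2% and 99.4% in every library, above all libraries of the earlier groups, the highest of which reached 97.2%. The summed level was 217 ± 23.9 CPM per kilobase in late_CC, against 162 ± 26.8 in early_CC (SD, n = 5 each). It was 316 ± 112 in late_MGC (n = 5), or 359 ± 64.9 without late_MGC 3 (n = 4), against 194 ± 61.6 in early_MGC (n = 5). The shares were not tested, because they were formed after the values of the members were known.

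The makeup of the remainder also differed between groups on this per-length scale. GJC1 and GJA4 took 5.16% and 4.51% of the summed level in secondary_GC, while GJA5 took 0.927%. In early_CC GJA5 had 3.19%, next to GJC1 with 3.78%, and GJA4 1.54%. GJA5 was above GJA4 in 4 of 5 early_CC and 3 of 5 early_MGC libraries, but in 0 of 4 secondary_GC libraries. In late_CC only GJC1, at 1.02%, was above 0.1%.

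**Figure D3:**
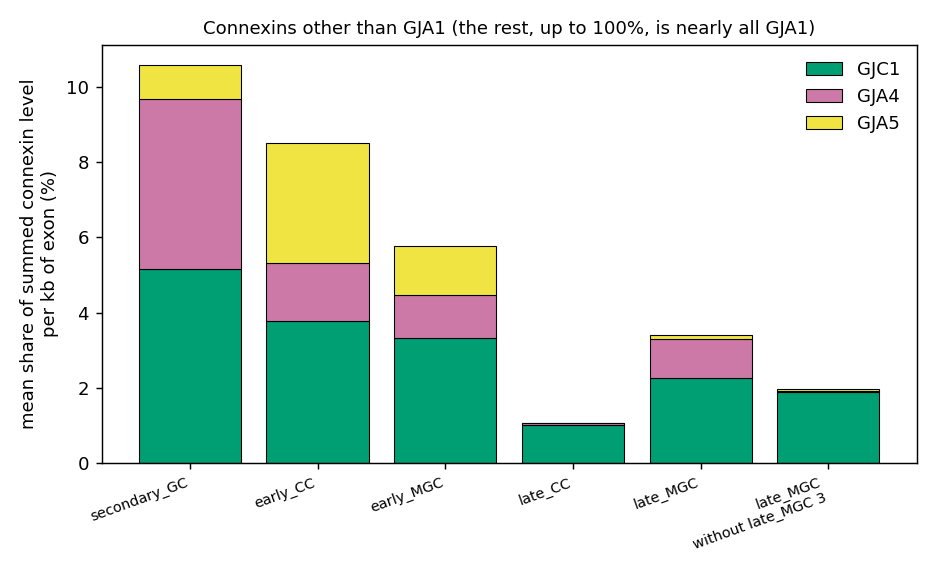
Mean share, in percent, of GJC1, GJA4 and GJA5 in the summed connexin level per kilobase of exon (vertical axis) for each group, with late_MGC shown with and without late_MGC 3. The stacked bars are highest in secondary_GC and lowest in late_CC, and the GJA5 part is widest in early_CC (3.19%).

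The other connexins with a symbol match were counted at low levels or not at all. Of 24 connexin and pannexin symbols in the RefSeq annotation, 16 matched a gene of the table, and 13 of these were connexins. The annotation has 21 connexin symbols, and those without a match were not read and are not in the summed connexin level. The 9 connexins beyond the 4 described did not pass the filter on low counts, and 2 of them had no count in any library. PANX1, the one pannexin tested, forms channels in single membranes. It averaged between 3.84 CPM in late_MGC and 7.43 CPM in early_MGC, and was called only for late_MGC against early_MGC without late_MGC 3 (-1.05 ± 0.38, edgeR adjusted p = 0.046, against -0.90 ± 0.36, 0.0826, with all libraries).

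A list of 35 genes whose proteins bind, move or modify connexins or hold cells together beside gap junctions was read in the same fits. Of these, 32 matched a symbol and all 32 were tested. In late_CC against early_CC, 5 were higher and 4 lower, 28.1% of the list against 45.2% of all genes called, with a median log2 fold change of 0.23, against 0.039 over all genes. The largest were CAV2, a caveolar protein (-2.34 ± 0.68, edgeR adjusted p = 0.00698), NEDD4, a ubiquitin ligase that binds GJA1 protein (1.58 ± 0.45, 0.00608), CNST, which carries connexins to the membrane (1.48 ± 0.29, 0.000215), and the kinase AKT1 (-1.35 ± 0.53, 0.0421). CNST averaged 24.2 ± 3.32 CPM in late_CC and 8.68 ± 3.37 CPM in early_CC (SD, n = 5 each), and NEDD4 averaged 13.4 ± 1.83 CPM in late_CC and 4.50 ± 1.15 CPM in early_CC. CAV2 and AKT1 were at low levels, 0.541 and 1.81 CPM in late_CC and 2.82 and 4.61 CPM in early_CC.

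In late_MGC against early_MGC, 4 of the 32 partner genes were higher and 1 lower with all libraries, 15.6% of the list against 19.1% of all genes called. The median was 0.22, against 0.050 over all genes, but -0.045 against -0.0042 without late_MGC 3. Beta-catenin (CTNNB1) was higher (0.73 ± 0.17, edgeR adjusted p = 0.00301), as were the kinesin KIF5B (0.75 ± 0.18, 0.00546) and the kinase PRKCA (1.47 ± 0.46, 0.0274). PRKCA was at a low level, 2.34 CPM in late_MGC and 0.910 CPM in early_MGC. Without late_MGC 3 its value was 1.30 ± 0.48, just under the threshold (0.0498), and CTNNB1 and KIF5B were still called. The adherens junction cadherin CDH1 was called with late_MGC 3 (2.47 ± 0.70, 0.0171) and not without it (0.19 ± 0.26, 0.648). Without that library 4 were higher and 3 lower (21.9% of the list, against 24.1% of all genes called). The largest was CAV1 (-4.17 ± 1.54, 0.0496), at a low level of 0.069 CPM in late_MGC and 1.34 CPM in early_MGC. Next was NEDD4, at -1.70 ± 0.28 (6.37e-05), opposite in sign to its difference between the cumulus stages. The interaction of NEDD4 was called with all libraries (2.098 ± 0.63, 0.0133) and without late_MGC 3 (3.28 ± 0.37, 9.14e-07). With all libraries the interaction was called for 7 of the 32 partner genes, 21.9% of the list against 31.4% of all genes. SRC had the largest value (3.05 ± 1.13, 0.0406).

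In late_CC against late_MGC, 5 partner genes were higher and 3 lower (25% of the list, against 39.7% of all genes called). CNST was higher (1.30 ± 0.29, edgeR adjusted p = 0.000887), as was the kinase SRC (2.80 ± 0.83, 0.00911). CAV2 (-1.73 ± 0.68, 0.0445) and the microtubule end protein MAPRE1 (-0.97 ± 0.23, 0.00187) were lower. The levels of SRC (1.67 CPM in late_CC, 0.202 CPM in late_MGC) and CAV2 (0.541 and 1.61 CPM) were low. Without late_MGC 3, CAV2 was not called (-1.55 ± 0.70, 0.0769), whereas NEDD4 (1.86 ± 0.28, 6.29e-06) and CDH1 (1.50 ± 0.26, 5.64e-05) were. CNST, SRC and MAPRE1 were still called. The count was then 9 higher and 3 lower (37.5% of the list, against 41.8% of all genes called). In that fit the median over all genes was 0.11, so that values near it do not stand out. In early_CC against early_MGC, NEDD4 (-1.42 ± 0.45, 0.0382) and PRKACB, a catalytic subunit of protein kinase A (-1.15 ± 0.24, 0.00329), were lower and CTNNB1 higher (0.60 ± 0.17, 0.0178), or 9.38% of the list against 13.1% of all genes called. CDH1 was called as well in the fit without late_MGC 3 (1.25 ± 0.24, 0.00105). In early_MGC against secondary_GC PRKACB was the only one called with all libraries (0.86 ± 0.26, 0.0376), and in early_CC against secondary_GC edgeR called none of the 32. In the fit without late_MGC 3, edgeR also called NEDD4 in early_MGC (1.15 ± 0.27, 0.00672), and CDH1 (1.64 ± 0.27, 0.000577) and the kinase PRKCD (1.77 ± 0.49, 0.0342) in early_CC, all higher than in secondary_GC.

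In late_CC against secondary_GC, 8 partner genes were higher and 4 lower, 37.5% of the list against 46.0% of all genes called. CNST averaged 24.2 ± 3.32 CPM in late_CC (SD, n = 5) and 6.35 ± 1.68 CPM in secondary_GC (SD, n = 4), a log2 fold change of 1.97 ± 0.32 (edgeR adjusted p = 3.39e-05). CDH1 was higher as well (2.07 ± 0.75, 0.0292), and CAV2 (-1.88 ± 0.70, 0.0315) and AKT1 (-1.57 ± 0.56, 0.0244) were lower. In late_MGC against secondary_GC 4 were higher and 3 lower, 21.9% of the list against 31.8% of all genes called. The largest were CDH1 (2.86 ± 0.78, 0.00782), which without late_MGC 3 was not called (0.58 ± 0.27, 0.102), SRC (-2.40 ± 0.85, 0.0329), the tight junction protein OCLN (-2.38 ± 0.84, 0.0317) and AKT1 (-1.65 ± 0.56, 0.0256). OCLN too was not called without late_MGC 3 (-2.15 ± 0.86, 0.0536). SRC and OCLN were at low levels, 0.202 and 0.303 CPM in late_MGC and 1.30 and 1.99 CPM in secondary_GC.

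Genes whose level followed that of a connexin were ranked by Pearson's r of log2 CPM over the 23 libraries without late_MGC 3. Such an r is a description, since the libraries share groups and any gene that differs between groups contributes to it. GJA1, ranked against 7008 genes that averaged 10 CPM or more, was followed most closely by the RNA helicase DHX29 (r = 0.863), by FRA10AC1 (0.856) and by the chaperone HSPA4 (0.850). GJA4, ranked against 10235 genes that averaged 1 CPM or more, was followed by HEYL (0.960), a transcriptional repressor of the Notch pathway, WT1 (0.952), a zinc finger transcription factor of the early gonad, and SSBP4 (0.938). With late_MGC 3 included, these 3 values were 0.928, 0.818 and 0.834.

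HEYL averaged 0.165 CPM in late_CC, against 7.15 CPM in early_CC, and 0.796 CPM in late_MGC (0.285 without late_MGC 3), against 10.8 CPM in early_MGC, with 23.5 CPM in secondary_GC. For GJA5 and GJC1, ranked in the same way after their values were seen, the nearest genes were HMGB3 (r = 0.907) and AOPEP (0.901). Among the connexins themselves, r over the 23 libraries was 0.79 between GJA4 and GJA5, 0.53 between GJA5 and GJC1, 0.52 between GJA4 and GJC1, 0.013 between GJA1 and GJC1, -0.50 between GJA1 and GJA5 and -0.59 between GJA1 and GJA4.

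**Figure D4:**
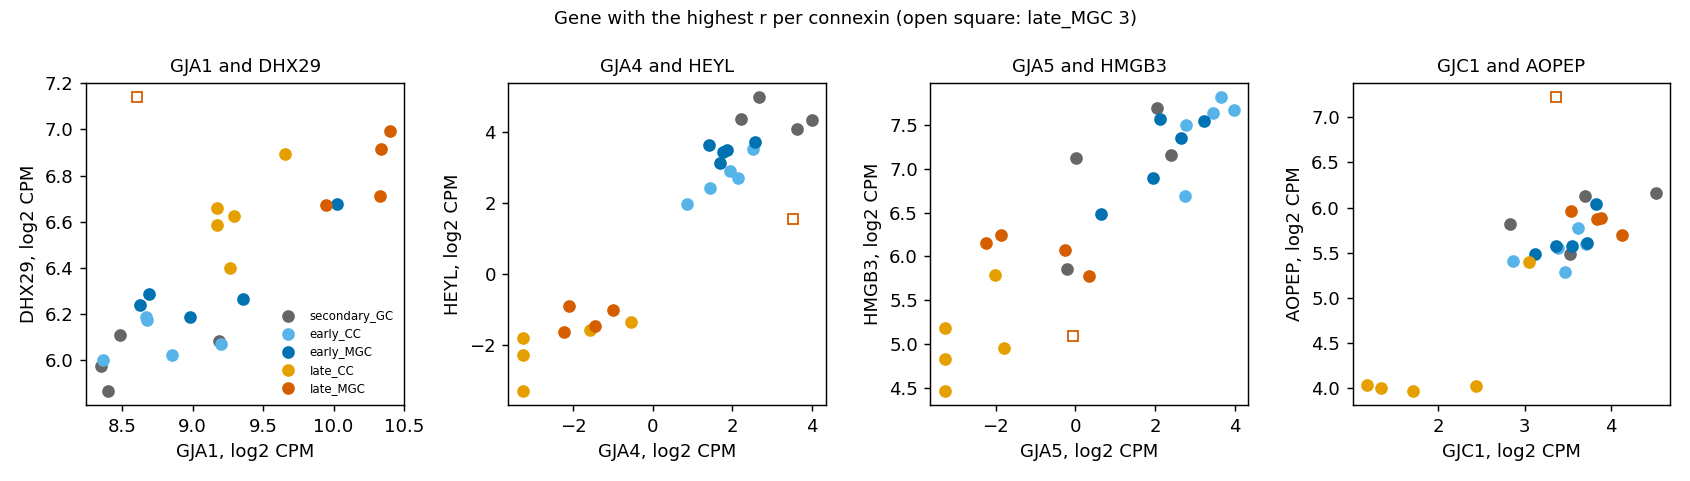
Log2 CPM of each connexin (horizontal axis) and of the gene with the highest r to it over 23 libraries (vertical axis), 1 point per library, coloured by group. GJA4 and HEYL (r = 0.960) fall into late antral libraries at the lower left and earlier ones at the upper right, with late_MGC 3, the open square, to the right of its group.

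GJA4 and GJA5 are also known from oocytes and vessels, and GJC1 from smooth muscle, so marker lists of these cells were read in the same libraries. Of 12 oocyte markers 10 matched, and BMP15, FIGLA and KPNA7 had 0 counts in all 24 libraries. The 10 summed to between 0.487 and 3.88 CPM in any library. Their sums were 0.785 to 3.88 CPM in late_CC and 0.862 to 2.55 CPM in early_CC, and the ranges overlapped. The 11 endothelial markers summed to 5.35 to 11.4 CPM in late_CC, against 11.3 to 26.9 CPM in early_CC, and to 2.09 to 6.10 CPM in late_MGC without late_MGC 3 (26.3 CPM in that library), against 25.2 to 46.4 CPM in early_MGC. In secondary_GC they summed to 28.6 to 37.4 CPM. Between early and late antral groups, late_MGC 3 left out, these sums moved in the same direction as GJA4, though single markers in cumulus cells did not. FLT1 led the sum in secondary_GC and the early antral groups, where its median was 25.8 CPM in secondary_GC, 20.1 CPM in early_CC and 34.8 CPM in early_MGC. In late_CC the FLT1 median was 2.06 CPM, next to TEK with 2.40 and VWF with 2.04 CPM. TEK and VWF were lower in early_CC, with medians of 1.07 and 0.306 CPM. The medians of TIE1 and EGFL7 also rose, from 0 CPM in early_CC to 0.141 and 0.343 CPM in late_CC. Those of CLDN5 and KDR fell, from 0.459 and 0.0856 CPM to 0 CPM. In late_MGC 3 FLT1 was 0.750 CPM. The defining endothelial genes PECAM1 and CDH5 did not exceed 0.133 and 0.138 CPM in any library.

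The 8 matched smooth muscle and pericyte markers summed to 19.8 to 68.0 CPM in late_CC, against 50.8 to 75.2 CPM in early_CC, and to 24.5 to 112 CPM in late_MGC, against 116 to 406 CPM in early_MGC, with 159 to 268 CPM in secondary_GC. MYH11 had the highest median of the list in every group, and PDGFRB did not exceed 0.589 CPM in any library. The part of cells with these markers in the connexin results was not tested. In late_MGC 3, where GJA4 was 57.5-fold the mean of the other late_MGC libraries, CLDN5 (16.7 CPM) and TAGLN (29.6 CPM) were higher than in any other library, PECAM1 had 0 counts, and PDGFRA was at 145 CPM. The 5 theca markers summed to 24.4 CPM there, less than in any other library (59.2 to 636 CPM). That low sum came from INSL3, with 1.87 CPM in late_MGC 3 against 26.9 to 597 CPM in the other libraries. PTCH1, at 22.2 CPM, was above the median of the other libraries (11.4 CPM). CYP17A1 was counted only in late_MGC 3 (0.161 CPM). The blood markers summed to at most 72.3 CPM, nearly all of it HBA in late_CC libraries. HBB had 0 counts in all 24 libraries, and PTPRC, CD68, CSF1R, CD3E and CD14 did not exceed 5.25 CPM in any. The part of blood cells in the late_CC results was not tested.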

How the data were processed

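RNA was prepared with the SMART-Seq v4 Ultra Low Input kit and libraries with Nextera XT, per the labels' protocols. The deposited values are counts of reads per gene, which the authors made with featureCounts 2.0.0 on exons of an Ensembl ARS-UCD1.2 annotation, per the file headers, with no option set for strand or read pairs. Other tools named in the submitters' processing notes are HISAT2 2.1.0, fastp 0.20.0 and SAMtools 1.10. Because strand was ignored, reads of overlapping or antisense genes cannot be told apart. In the table a count of 2 occurred 19875 times and a count of 1 occurred 4837 times, so low counts may hold both mates of a read pair and stand for fewer fragments than reads. The table has 1 column of undetermined reads that belongs to no sample; it was not used.

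Symbols were assigned by position against RefSeq ARS-UCD2.0, by mutual best overlap of gene spans, with a minimum of 0.5 of the joint span. Of 12219 genes that averaged 1 CPM or more, 10805 (88.4%) received one. After a shift of 1000000 bases 1039 still would, so a single name can be wrong. The overlap was 1.00 for GJA1, 0.99 for GJA4, 0.946 for GJA5 and 0.868 for GJC1, and GJA1 shares its end and GJA5 its start with the RefSeq gene.

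Libraries of late_MGC and secondary_GC are numbered by column order, since their columns carry no replicate number or another one than the titles. No pair within a group was a copy (over 46 pairs, chi-square per degree of freedom was 18.6 or more). Counts were tested with the robust quasi-likelihood test of edgeR 4.0.16 (R 4.3.3) after TMM scaling and filterByExpr, with all 24 libraries in 1 fit by group. The biological coefficient of variation was 42.4%. Standard errors were derived from the test statistic. The script was tested on simulated data. Alternatives were RLE scaling, DESeq2 1.42.0, voom of limma 3.58.1, no filter, only the groups compared, a replicate block, and fits without 1 or 3 libraries. Each connexin was named in every comparison, at most 4 called partner genes per comparison by size of log2 fold change, and the 3 genes of highest r. The values of CDH1 without late_MGC 3, and the genes nearest to GJA5 and GJC1, were added after values were seen. The members, lists, tests and alternatives were chosen with earlier results of these data known. Single values of connexins under the filter on low counts are not reported here.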

Additional observations from a re-analysis of the deposited data

Results flagged for a closer look

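In 20 combinations of connexin and group, 2 libraries lay far from the others of their group by Dixon's criterion, which chance alone meets in about 1 of 20 groups. GJA4 was 11.5 CPM in late_MGC 3, against 0.0949 to 0.361 CPM in the other late_MGC libraries. GJA4 was 4.77 CPM in early_MGC 4, against 2.84 to 3.36 CPM in the other early_MGC libraries.

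The change with stage differed between cumulus and mural cells by the edgeR interaction test for 3 connexins, with log2 values of -4.01 for GJA4, -4.07 for GJA5 and -1.59 for GJC1. That of GJA4 was -0.53 without late_MGC 3 and was then not called.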

How the results depend on the processing

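All values here are log2 fold changes, and the cause of a change was not tested unless the setting states it. Outside the fits that leave out 1 library, 243 of 282 values kept their direction and side of the threshold, 19 were newly called, 15 were no longer called and 5 changed sign. With RLE scaling, GJA1 in late_MGC against early_MGC lost its call (0.76), and GJC1 in late_MGC against secondary_GC was -0.082, as with DESeq2 (-0.082); no other result changed with either. Without a filter GJA4 was 0.027 in early_CC against early_MGC, and its interaction (-4.10) was not called. With limma-voom, GJA5 in early_CC against secondary_GC (1.96) and GJA4 in late_MGC against early_MGC (-2.76) and secondary_GC (-4.30) were called. GJA1 in late_MGC against early_MGC (0.78), GJA1, GJA4 and GJA5 in late_CC against late_MGC (-0.61, -2.69 and -2.79) and the interaction of GJA4 (-2.67) were not. In fits of only the groups compared, which hold fewer samples, GJA4 in early_MGC (-1.43) and early_CC (-1.48), GJA5 in early_CC against secondary_GC (1.84) and GJA1 in late_CC against early_CC (0.50) were called. GJA1 in late_MGC against early_MGC (0.75) and in late_CC against late_MGC (-0.71), GJA5 in late_MGC against secondary_GC (-2.25) and the interaction of GJA4 (-3.96) were not, and GJC1 in late_MGC against secondary_GC was -0.074. GJA4 and GJA5 in late_CC against late_MGC gave no value there, as they failed the filter.

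Without late_MGC 3, GJA4 was -4.03 in late_MGC against early_MGC, -5.46 against secondary_GC, -0.53 in late_CC against late_MGC and -0.53 in the interaction, and GJA1 in late_CC against secondary_GC was 0.68. Without the 3 libraries that stand apart, the GJA4 values were -3.82, -5.47, -1.83 and -2.04 in the same order, -1.65 in early_MGC and -1.44 in early_CC against secondary_GC, and 0.21 in early_CC against early_MGC. There GJA5 was 1.89 in early_CC and GJA1 0.58 in late_CC against secondary_GC, and the interaction of GJA1 was -0.87.

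Libraries of the same number did not deviate together in every pair (r of deviations -0.105 to 0.242, the own number as best match in 3 of 10 pairs), so the numbers were not taken as pairs. A fit with the replicate number as a block called GJA5 in early_CC against early_MGC (1.14, edgeR adjusted p = 0.00782) and GJA1 in late_CC against early_CC (0.52, 0.0258), and changed no other call of these 2 comparisons. The other comparisons could not be blocked, as late_MGC and secondary_GC columns carry no matching numbers.

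Leaving out 1 library at a time, GJA1 ranged from 0.70 to 1.11 in late_MGC against early_MGC, from -0.94 to -0.63 in late_CC against late_MGC and from 0.58 to 0.91 in late_CC against secondary_GC. GJA4 ranged from -4.03 to -0.23, from -5.32 to -0.53, from -0.23 to 0.21 (early_CC against early_MGC, where 0.17 and 0.091 also changed sign), from -5.46 to -1.63 (late_MGC against secondary_GC) and from -5.32 to -0.53 (interaction). GJA5 in late_MGC against secondary_GC ranged from -2.58 to -1.70. GJC1, not called in any of these fits, ranged from -0.19 to 0.012 in early_CC against early_MGC, and against secondary_GC from -0.56 to 0.043 in early_CC, -0.45 to 0.15 in early_MGC and -0.21 to 0.39 in late_MGC. Few reads limit the values of GJA4 and GJA5 in late_CC, which rest on 12 and 6 reads.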
